A study of Mus musculus with 12 samples.

Results

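The 10 genes described here encode the subunits of the transcription factor NF-κB and the IκB proteins that bind them. They were taken from messenger RNA tables of mouse bone marrow-derived macrophages (BMDMs) by exact gene symbol. The subunits were Rela, Rel, Relb, Nfkb1 and Nfkb2. The classical IκB proteins were Nfkbia, Nfkbib and Nfkbie, and the nuclear IκB proteins were Nfkbiz and Bcl3. Each symbol named a single row, so the family took 10 of the 23361 symbols, and all 10 reached 1 FPKM (fragments per unit of transcript length and per unit of library size) in at least 1 of the 12 samples.

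Whether IL-4 pretreatment changes the response of macrophages to LPS was the question the 4 groups of 3 samples addressed. All cells came from wild-type C57BL/6 mice of 8 to 12 weeks and were differentiated for 6 days in L929-cell supernatant, a source of M-CSF. Control cells received nothing further, IL-4 cells received IL-4 at 20 ng/ml for 24 h, LPS cells received LPS at 100 ng/ml for 3 h, and IL-4+LPS cells received the IL-4 and then the LPS. IL-4 is a cytokine of type 2 immunity that signals through STAT6, and LPS is an outer membrane molecule of bacteria that is sensed by TLR4. These were cultured cells at a single LPS time and dose. The LPS dose is that of the labels, and the study's methods give it in nM and not in ng/ml. The study describes individual animals and more than a single experiment for this RNA-seq, but the labels tie no sample to an animal or an experiment, so whether replicate numbers follow the experiments is unknown and the p-values measure the spread between these samples.

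In resting macrophages NF-κB dimers are held in the cytoplasm by IκB proteins. LPS activates the IκB kinase complex, the IκB proteins are phosphorylated and degraded, and the freed dimers enter the nucleus and bind κB sites. Genes for IκB proteins and for several subunits are themselves NF-κB targets, so the pathway rebuilds its own inhibitors and changes its own makeup after a stimulus. The nuclear IκB proteins are not degraded in this way and act on NF-κB dimers that are already on DNA. The measurements below are of messenger RNA and say nothing of protein amount, location or DNA binding.

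The total FPKM per sample lay between 457583 and 495025, and the absolute depth was unknown because no counts were analysed. Relative depth, read from the steps of the low values, ran from 0.991 to 3.30 with control replicate 1 set to 1. Replicate 1 stood apart in every group. Its Pearson r with the other replicates of its group, across genes, was 0.954 to 0.962, against 0.974 to 0.983 between replicates 2 and 3. All 8 macrophage markers examined were detected in every group, Lyz2 at 4183 to 16507 FPKM. B cell, T cell and fibroblast markers summed to less than 1 FPKM in every sample. The neutrophil and precursor genes Elane, Mpo and Prtn3 summed to 3.96 to 19.2 FPKM over the 12 samples, and the dendritic cell list reached its highest sum, 2.34 to 3.24 FPKM, in IL-4+LPS. Of that list only Zbtb46 passed 1 FPKM, at up to 2.83, and Flt3, Xcr1 and Siglech stayed at 0.514 or less in all samples. Because these were bulk samples, fewer cells of a type and less RNA per cell cannot be told apart. In GENCODE annotation of the same assembly, 18.1% of the exonic bases of Nfkb2, 16.4% of those of Nfkbib and 6.51% of those of Bcl3 overlapped a gene on the other strand, and whether the counting used strand was not given in the sources used here. Reads from those stretches cannot be assigned to either gene with certainty. At most 1.10% of the 50-base words of a member's longest transcript occurred in a transcript of another gene.

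Promoter sequence was examined first, since NF-κB controls several of its own genes. Of the 10 genes, 7 had an entry in the RefSeq table (GRCm38.p6, whose chromosomes are those of mm10), with 9 promoters of 300 bases, running from 250 bases before the transcription start to 50 after it. Nfkb1, Relb and Nfkbiz had none. The κB consensus, the 10-base site of NF-κB dimers, was searched on both strands and was found in 7 of the 9 promoters, belonging to 5 of the 7 genes. It was found in 8.46% of all 32851 promoters of the table. Nfkb2, Nfkbia, Nfkbie, Rel and Bcl3 held a match, and Rela and Nfkbib held none in these windows. The STAT6 consensus TTCNNNNGAA was found in 0 of the 9 promoters and in 6.95% of all. A match describes the letters only and is not evidence of binding. Matches that overlap each other were counted separately. A pair of the Nfkb2 promoter windows overlap and share a match, which counts for each of these promoters.

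The windows below hold matches that lie before the start in Nfkbia and Nfkbie, a pair of inhibitors, and in Rel and Nfkb2, a pair of subunits. They are shown so that the sites can be read beside the LPS response of these genes. Capitals mark the κB match, and sequences run 5′ to 3′ in the direction of transcription. Negative positions are distances from the start base, and positive positions count the start base itself as the first. The Nfkbia window is chr12:55492649-55492757 on the minus strand and its match begins at position -29. The Nfkbie window is chr17:45555590-45555698 on the plus strand, with the match at -106. The Rel window is chr11:23770971-23771079 on the minus strand, with a pair of overlapping matches beginning at -92 and -91. For Nfkb2 only 30 bases are shown, chr19:46304695-46304724 on the plus strand, because annotated GENCODE exons cover them. Its overlapping matches begin at -39 and -38. Further matches of Nfkb2 lie outside the stretch shown, at -11 from the same start and at -236 and 11 from another of its starts. The match at 11 is the same site as the match at -225 from a further start.
Nfkbia: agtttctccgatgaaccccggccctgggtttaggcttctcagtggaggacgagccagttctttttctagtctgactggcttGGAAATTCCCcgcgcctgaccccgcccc
Nfkbie: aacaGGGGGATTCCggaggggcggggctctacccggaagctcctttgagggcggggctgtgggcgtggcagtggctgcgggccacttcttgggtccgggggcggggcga
Rel: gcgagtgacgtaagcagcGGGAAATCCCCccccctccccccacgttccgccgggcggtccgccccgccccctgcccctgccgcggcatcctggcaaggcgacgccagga
Nfkb2: cacGGGAATTCCCCccctcggggggccgaa

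Among the subunits, Rela was the most abundant in control cells and responded least to LPS, while Nfkb2 and Nfkb1 became the most abundant after LPS. Rela encodes the subunit that carries the main transactivation domain and lies on chromosome 19 (mm10, 5637490 to 5648130, plus strand). Rela FPKM was 36.4, 44.7 and 42.9 in control replicates 1, 2 and 3, 27.1, 30.3 and 32.1 with IL-4, 83.1, 106 and 99.7 with LPS and 61.3, 79.9 and 84.7 with both. The LPS samples all lay above the control samples and the IL-4 samples all lay below them, and LPS and IL-4+LPS overlapped.

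Rel encodes c-Rel, a transactivating subunit found mainly in blood cells, on chromosome 11 (23741729 to 23770970, minus strand). It measured 6.95, 4.6 and 5.27 in control replicates 1, 2 and 3, 8.97, 5.66 and 6.74 with IL-4, 37.6, 33.5 and 34.5 with LPS and 54.2, 56.3 and 56.9 with both. Every IL-4+LPS sample was above every LPS sample, whereas control and IL-4 overlapped. Replicate 1 was the highest sample of the control, IL-4 and LPS groups.

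Relb encodes the transactivating subunit of the noncanonical pathway, on chromosome 7 (19606222 to 19629438, minus strand). Relb FPKM came to 20.7, 21.4 and 20.2 in control replicates 1, 2 and 3, 7.13, 6.21 and 6.46 with IL-4, 77.2, 89.2 and 85.04 with LPS and 52.3, 72.7 and 68.5 with both. No pair of the 4 groups overlapped. IL-4 samples were lowest, followed by control, IL-4+LPS and LPS.

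Nfkb1 and Nfkb2 encode precursors that are processed to DNA-binding subunits lacking a transactivation domain, and the unprocessed precursors can hold dimers in the cytoplasm as an IκB would. Nfkb1, on chromosome 3 (135584655 to 135691547, minus strand), was at 29.0, 31.2 and 30.6 in control replicates 1, 2 and 3, 26.6, 27.7 and 28.3 with IL-4, 167, 193 and 199 with LPS and 165, 231 and 228 with both. The IL-4 samples lay just below the control samples, and the LPS and IL-4+LPS samples overlapped. Nfkb2, on chromosome 19 (46304737 to 46312090, plus strand), was at 28.5, 34.0 and 33.8 in control replicates 1, 2 and 3, 14.6, 17.5 and 16.5 with IL-4, 189, 290.4 and 275 with LPS and 155, 289 and 286 with both. Its LPS-treated groups overlapped almost fully, with replicate 1 well below replicates 2 and 3 in both.

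Nfkbia was the most abundant family member after LPS in every sample. It encodes IκBα, the inhibitor that is degraded and resynthesised fastest after a stimulus, on chromosome 12 (55489409 to 55492647, minus strand). Nfkbia FPKM ran 36.6, 48.5 and 47.1 in control replicates 1, 2 and 3, 18.0, 23.3 and 21.2 with IL-4, 660.1, 1063 and 1044 with LPS and 457, 803 and 771 with both. IL-4 samples lay below control samples, and the LPS and IL-4+LPS samples overlapped.

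Nfkbib encodes IκBβ, on chromosome 7 (28758251 to 28766524, minus strand), and its levels were 12.7, 15.3 and 13.9 in control replicates 1, 2 and 3, 10.9, 12.8 and 13.1 with IL-4, 70.4, 98.2 and 94.8 with LPS and 53.7, 90.3 and 85.3 with both. It was the single IκB gene whose IL-4 and control samples overlapped. Nfkbie encodes IκBε, an inhibitor of Rela- and c-Rel-containing dimers, on chromosome 17 (45555716 to 45563168, plus strand), and stood at 12.2, 15.0 and 16.0 in control replicates 1, 2 and 3, 6.64, 7.76 and 8.31 with IL-4, 128, 164 and 159 with LPS and 153, 195 and 190.4 with both. Control and IL-4 were separated, and LPS and IL-4+LPS overlapped.

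Nfkbiz had the widest range of the family. It encodes IκBζ, a nuclear cofactor required for secondary response genes such as Il6, on chromosome 16 (55811377 to 55838641, minus strand). Nfkbiz FPKM measured 8.63, 6.08 and 7.04 in control replicates 1, 2 and 3, 0.887, 0.51 and 0.516 with IL-4, 215, 243 and 249 with LPS and 133, 200.1 and 206 with both. All IL-4 samples were under 1 FPKM, the expression floor used here, and all LPS samples were above all IL-4+LPS samples. Bcl3, a nuclear IκB protein that binds homodimers of the subunits without transactivation domains, lies on chromosome 7 (19808462 to 19822755, minus strand) and was at 12.7, 12.6 and 13.8 in control replicates 1, 2 and 3, 6.46, 7.0 and 6.15 with IL-4, 75.9, 146 and 131 with LPS and 68.7, 172 and 158 with both. Replicate 1 was far below the other replicates in both LPS-treated groups, and its control value was not.

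**Figure D1:**
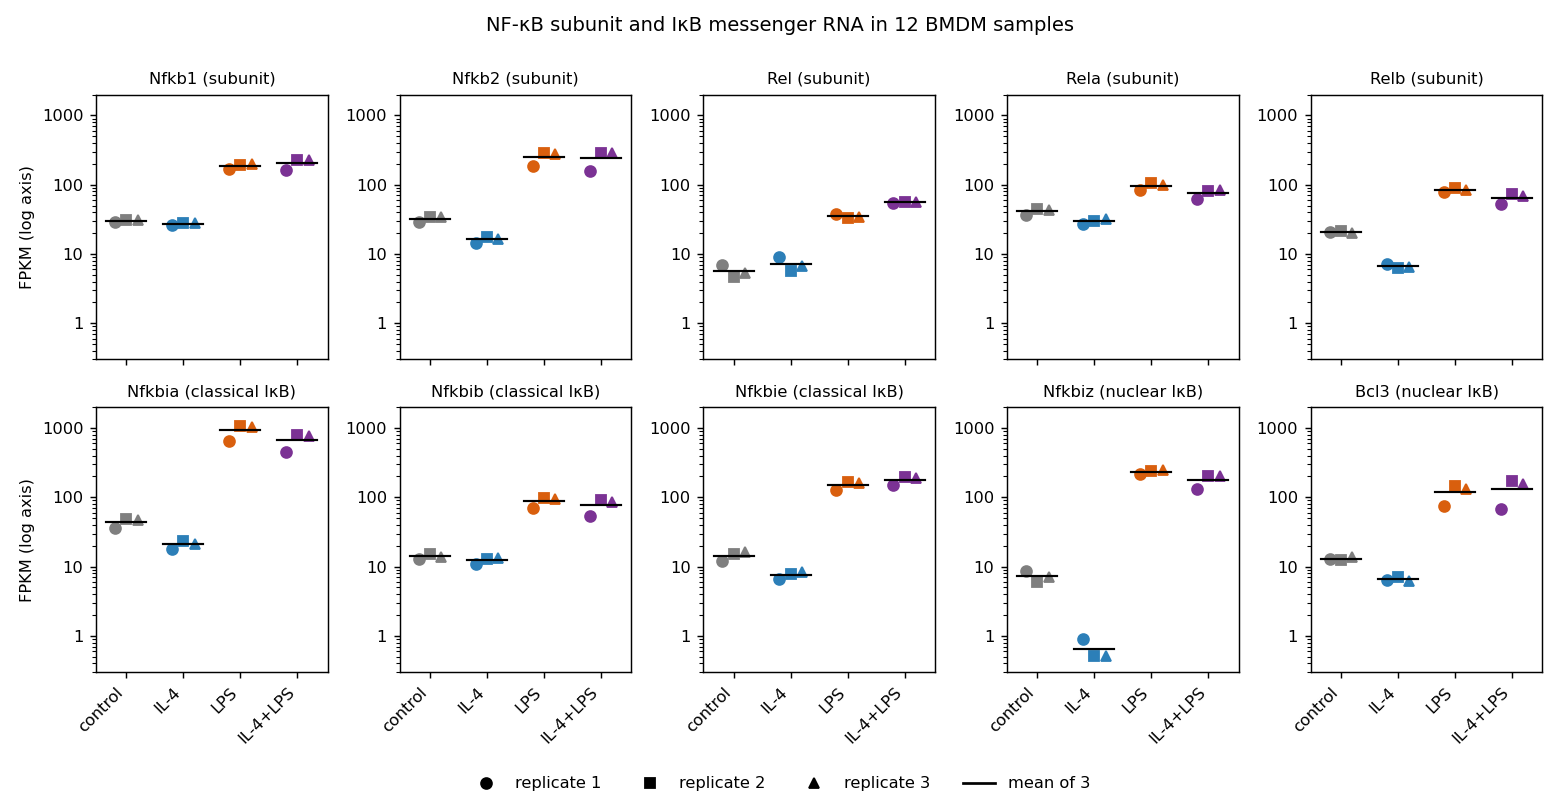
FPKM of the 10 genes on a log axis by group. Points are single samples with the replicate number as the symbol, and bars are the means of 3. Nfkbia is the highest gene in both LPS-treated groups, Nfkbiz is under 1 FPKM in the 3 IL-4 samples, and the circles of replicate 1 lie lowest for 9 of 10 genes in LPS and 10 of 10 in IL-4+LPS.

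Replicate 1 was the lowest sample for 9 of the 10 genes in LPS and for 10 of 10 in IL-4+LPS, and for 6 of 10 in both groups without LPS. Over all rows tested, replicate 1 was lowest in 39.1% of rows in LPS and 34.8% in IL-4+LPS, and over rows that rose with LPS in 58.4% and 60.3%. Its ratio to the mean of replicates 2 and 3 went down to 0.547 in LPS and 0.417 in IL-4+LPS, both for Bcl3, and was 0.961 and 0.984 for Bcl3 in control and IL-4. The tests below are therefore also given without replicate 1. It was chosen for this from the same values, and removing deviating samples lowers the spread that the tests are set against. Further calls without replicate 1 are therefore descriptions. The relative depth of replicate 1 was 0.991 to 1.03 in the 4 groups, against 1.27 to 3.30 in the other samples, and the part of depth in this difference was not tested.

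All 10 genes rose after LPS alone. A gene is called higher or lower here when its limma p-value, adjusted by the Benjamini-Hochberg method over the 11191 rows tested, is under 0.05, and changes are differences of log2(FPKM + 1), a scale that understates the change of low genes. Of all rows, 16.9% were called higher and 57.7% lower. The median change was 2.74 over the family and -0.44 over all rows. Median scaling of the samples moved the median of all rows to -0.068 and the counts of all rows to 3271 higher and 3941 lower, and left all 10 family members higher.

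Nfkbiz rose the most in the family, by 4.85 (SE 0.17, adjusted p = 6.88e-09), and its mean FPKM went from 7.25 ± 1.29 to 236 ± 17.8 (SD, n = 3), a 32.5-fold difference of the means. Nfkbia followed with 4.33 (SE 0.24, adjusted p = 1.06e-07), from 44.1 ± 6.50 to 922 ± 227 FPKM, or 20.9-fold. Nfkbie rose by 3.29 (SE 0.14, adjusted p = 1.55e-08) and Nfkbib by 2.56 (SE 0.19, adjusted p = 7.59e-07), so the 3 classical inhibitors differed widely in the size of their response. Bcl3 increased by 3.03 (SE 0.32, adjusted p = 9.78e-06), with the largest standard error of the family.

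Nfkb2 had the largest increase of the subunits. It rose by 2.91 (SE 0.23, adjusted p = 1.29e-06), or 7.82-fold in mean FPKM, and Nfkb1 by 2.58 (SE 0.12, adjusted p = 3.14e-08), or 6.15-fold. The change of Rel was 2.47 (SE 0.15, adjusted p = 2.02e-07) and that of Relb 1.96 (SE 0.11, adjusted p = 1.28e-07). Rela had the smallest increase, 1.2 (SE 0.14, adjusted p = 1.72e-05), which was 2.33-fold in mean FPKM. Its 95% interval, 0.90 to 1.5, did not meet that of any other member. Without replicate 1 all 10 were again called higher, from 1.21 (adjusted p = 2.85e-06) for Rela to 5.03 (adjusted p = 3.94e-08) for Nfkbiz.

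IL-4 alone lowered 7 of the 10 genes. Relb and Nfkbiz fell the most, Nfkb2, Nfkbia, Nfkbie and Bcl3 had means 1.90- to 2.12-fold below control, Rela fell less, and Nfkb1, Rel and Nfkbib were not called. With limma 0 were higher, with 0 at an unadjusted p under 0.05 and 0 with a per-gene Tukey test. Of all rows, 16% were called higher and 21% lower in this comparison. The family median was -0.87, against -0.049 for all rows.

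Nfkbiz decreased from 7.25 ± 1.29 to 0.638 ± 0.216 FPKM, 11.4-fold in the means, with a log2 change of -2.33 (SE 0.17, adjusted p = 4.41e-06) that the added constant compresses at so low a level. Relb decreased from 20.7 ± 0.594 to 6.60 ± 0.475 FPKM, 3.14-fold, or -1.52 (SE 0.11, adjusted p = 4.02e-06) on the log2 scale. Changes were -1.04 (SE 0.24, adjusted p = 0.00686) for Nfkbia, -0.95 (SE 0.23, adjusted p = 0.00959) for Nfkb2 and -0.84 (SE 0.14, adjusted p = 0.000936) for Nfkbie. These 5 calls held under all 19 alternative settings.

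The calls of Rela and Bcl3 were close to the threshold. Rela fell by 0.46 on the log2 scale (SE 0.14, adjusted p = 0.0246), a call that was lost in 6 of 19 settings, among them the fits without control replicate 2, control replicate 3, IL-4 replicate 1 or IL-4 replicate 2 (adjusted p = 0.0562 to 0.0840). Bcl3 changed by -0.90 (SE 0.32, adjusted p = 0.0498), and that call was lost in 12 of 19 settings, including the loss of any single control or IL-4 sample (adjusted p = 0.0923 to 0.124), although its IL-4 and control samples did not overlap.

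Nfkb1 had a change of -0.13 (95% interval -0.40 to 0.13, adjusted p = 0.426), Rel of 0.29 (95% interval -0.043 to 0.63, adjusted p = 0.159) and Nfkbib of -0.18 (95% interval -0.60 to 0.25, adjusted p = 0.509), none past the threshold. Without replicate 1, the family had 8 genes lower and 1 higher, where 2406 rows of 11191 were called higher and 3286 lower, with Nfkb1 at -0.14 (adjusted p = 0.0175) and Rel at 0.28 (adjusted p = 0.036) added. Rel was also called higher without control replicate 1 alone (0.43, adjusted p = 0.0471). The summed FPKM of the 8 macrophage markers was 19479 to 20896 in control and 7920 to 8138 in IL-4. The part of this difference in these decreases was not tested. Lyz2 was the largest of these markers, at 4183 to 16507 FPKM over all samples. The next, Cd68, was at 998 to 1881 FPKM, so the sum mostly follows Lyz2. The study describes Lyz2 itself as a gene repressed by IL-4. Whether macrophage content differed between control and IL-4 was not tested.

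**Figure D2:**
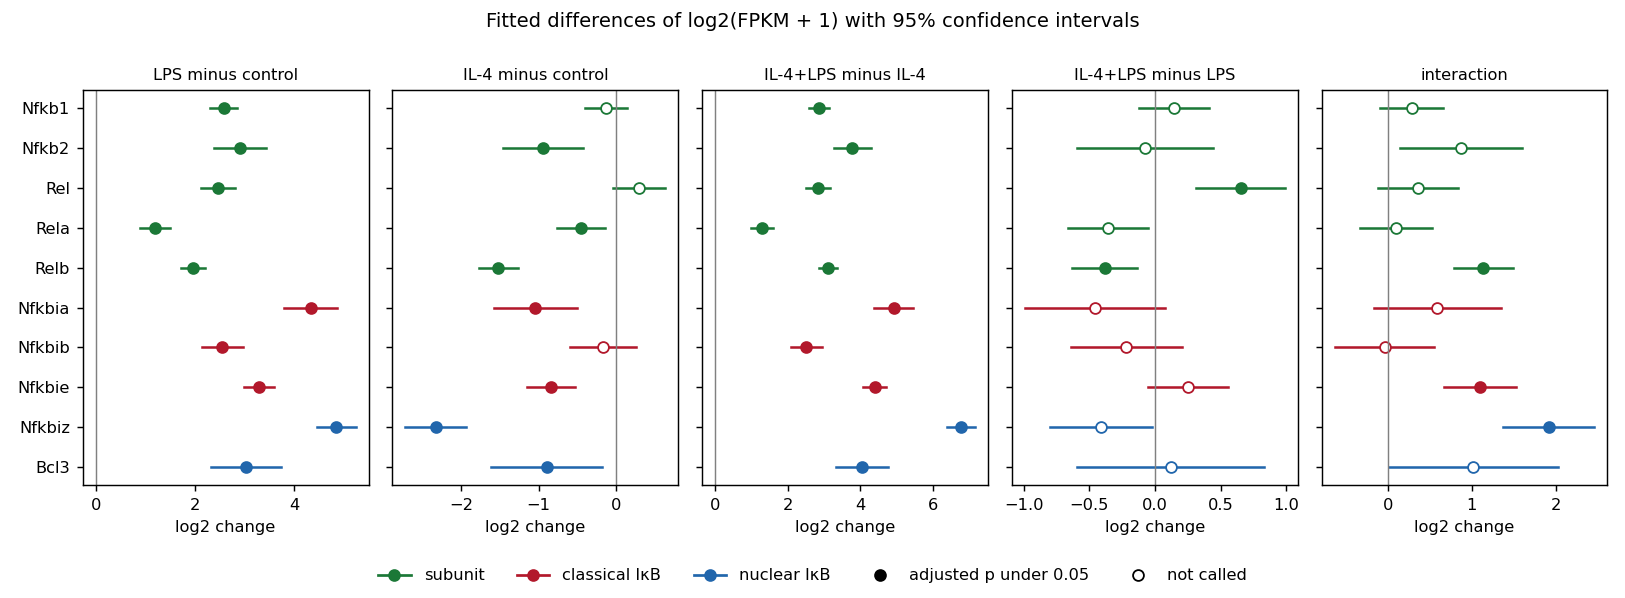
Fitted differences of log2(FPKM + 1) for the 10 genes in the 5 contrasts, with 95% confidence intervals, on an axis that differs between panels. Filled points passed an adjusted p of 0.05. All points are filled and right of 0 in the LPS contrasts, 7 are filled and left of 0 for IL-4 minus control, and Rel and Relb are the filled points for IL-4+LPS minus LPS.

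After IL-4 pretreatment LPS again raised all 10 genes, and 3 of them, Relb, Nfkbie and Nfkbiz, had a larger log2 response than in cells without IL-4. In IL-4+LPS minus IL-4, 15% of all rows were called higher and 57.9% lower, with a median of -0.41 over all rows and 3.44 over the family. Median scaling made these 2919 and 3638 rows and left all 10 genes higher. Nfkbiz rose by 6.77 (SE 0.17, adjusted p = 1.17e-09), Nfkbia by 4.92 (SE 0.24, adjusted p = 4.83e-08), Nfkbie by 4.39 (SE 0.14, adjusted p = 3.15e-09) and Bcl3 by 4.04 (SE 0.32, adjusted p = 1.46e-06). Among the subunits the changes ran from 1.30 (SE 0.14, adjusted p = 1.15e-05) for Rela to 3.78 (SE 0.23, adjusted p = 2.48e-07) for Nfkb2, with Relb at 3.10, Nfkb1 at 2.86 and Rel at 2.83. Nfkbib rose by 2.51 (SE 0.19, adjusted p = 1.03e-06). All 10 were called higher without replicate 1 as well.

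The interaction tests this difference directly, as the response to LPS of pretreated cells less that of cells without IL-4. It called 3 genes of the family higher and 0 lower with limma (0 lower at an unadjusted p under 0.05 and 0 with the per-gene Tukey test), against 4.58% of all rows higher and 4.63% lower. The interaction was 1.91 (SE 0.25, adjusted p = 0.00112) for Nfkbiz, 1.13 (SE 0.16, adjusted p = 0.00172) for Relb and 1.10 (SE 0.20, adjusted p = 0.00606) for Nfkbie, and these 3 calls held in all 19 alternative settings. It was 1.02 (95% interval 0.0093 to 2.02, adjusted p = 0.203) for Bcl3 and 0.87 (95% interval 0.14 to 1.60, adjusted p = 0.135) for Nfkb2, with intervals above 0 that did not pass after adjustment. Nfkb1 (0.28), Rel (0.36), Rela (0.10), Nfkbia (0.59) and Nfkbib (-0.043) had intervals that included 0. The narrowest of these, that of Nfkb1, ran from -0.10 to 0.66.

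For the 3 genes called, the larger log2 response started from a lower level, since IL-4 alone had lowered all 3, and the interaction shares its IL-4 and control samples with that comparison. Relb gained 63.1 FPKM in the means without IL-4 and 57.9 FPKM after it, and Nfkbiz gained 228 and 179 FPKM, so neither gained more in FPKM. Nfkbie gained 136 and 172 FPKM. These gains are descriptions and were not tested.

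Without replicate 1 the interaction called 8 of the 10 genes higher, where 1481 rows of 11191 were called higher and 1386 lower. Standard errors were much smaller in this fit, at 0.063 for Nfkb2 against 0.33 with all samples, after removal of samples chosen as deviating. The additional genes were Nfkb2 at 0.98 (adjusted p = 0.000225), Bcl3 at 1.16 (adjusted p = 0.00142), Nfkbia at 0.65 (adjusted p = 0.00177), Rel at 0.44 (adjusted p = 0.0429) and Nfkb1 at 0.37 (adjusted p = 0.00347). Leaving out IL-4+LPS replicate 1 alone gave 6 calls. Rela and Nfkbib were not called in any of these fits.

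**Figure D3:**
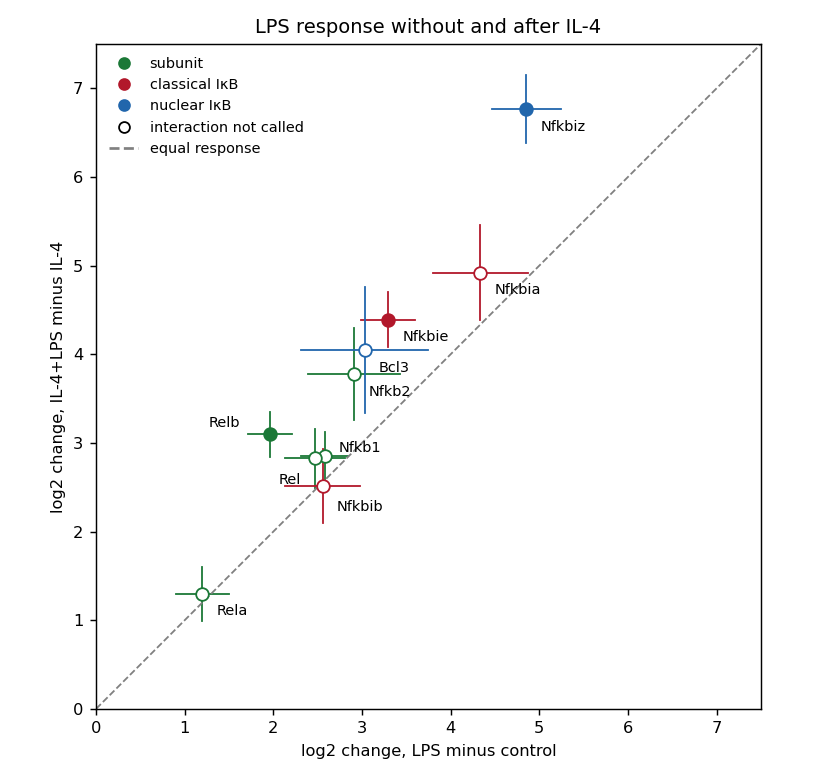
LPS response of each gene as a log2 difference without IL-4 (horizontal) and after IL-4 (vertical), with 95% confidence intervals and a dashed line of equal response. Filled points have an interaction past the threshold. Nfkbiz, Relb and Nfkbie are filled and above the line, and Rela and Nfkbib lie close to it.

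With LPS present, the level reached was different after IL-4 for 2 of the 10 genes, Rel and Relb, in opposite directions, and for 5 when samples were paired by replicate number, with Nfkbie higher and Rela and Nfkbia lower in addition. In this comparison 15% of all rows were called higher and 15.8% lower, shares above the 1 of 10 called in each direction here. The family median was -0.15 and that of all rows -0.031. Samples of the same number in these 2 groups deviated together from their group means, with a correlation across rows of 0.386, 0.181 and 0.119 for replicates 1, 2 and 3. Differently numbered samples could do so as strongly. LPS replicate 2 with IL-4+LPS replicate 3 was at 0.22, and LPS replicate 3 with IL-4+LPS replicate 2 at 0.133. The correlations thus set replicate 1 apart but do not single out pairs among replicates 2 and 3. With the replicate number as a block in the limma fit, 2 genes were higher and 3 lower, against 2287 rows higher and 2667 lower over all. The block was fitted over all 12 samples. It therefore also covered control and IL-4, where same-numbered samples were not shown to be paired.

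Rel was higher after IL-4, at 55.8 ± 1.42 against 35.2 ± 2.13 FPKM, a 1.59-fold difference of the means and a log2 change of 0.65 (SE 0.15, adjusted p = 0.00812). That call held in all 19 settings. Relb was lower, at 64.5 ± 10.8 against 83.8 ± 6.06 FPKM, with a change of -0.38 (SE 0.11, adjusted p = 0.0252). The call was lost with median scaling (-0.34, adjusted p = 0.0828) and without LPS replicate 2 (adjusted p = 0.0845) or LPS replicate 3 (adjusted p = 0.0707).

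Every IL-4+LPS sample of Nfkbiz lay below every LPS sample, with means of 179.7 ± 40.9 and 236 ± 17.8 FPKM, but its change of -0.41 (95% interval -0.80 to -0.026, adjusted p = 0.101) did not pass the adjustment, nor did it with the replicate block (adjusted p = 0.108). The changes were -0.36 (95% interval -0.66 to -0.053, adjusted p = 0.0736) for Rela and -0.46 (95% interval -0.99 to 0.078, adjusted p = 0.185) for Nfkbia. Both passed with the replicate block, at an adjusted p of 0.00153 and 0.00588 in limma, and were lower after IL-4 in 3 of 3 same-numbered pairs. For Nfkb2 it was -0.077 (95% interval -0.59 to 0.44, adjusted p = 0.846) and for Bcl3 0.12 (95% interval -0.59 to 0.83, adjusted p = 0.824), intervals wide enough to hold a change of either sign. Nfkbie had 0.25 (95% interval -0.054 to 0.56, adjusted p = 0.202), and it passed with the replicate block (adjusted p = 0.00261), being higher after IL-4 in 3 of 3 pairs. The changes were 0.15 (95% interval -0.12 to 0.41, adjusted p = 0.403) for Nfkb1 and -0.22 (95% interval -0.64 to 0.20, adjusted p = 0.43) for Nfkbib. Nfkbib and Nfkbiz were also lower after IL-4 in 3 of 3 pairs and did not pass with the block. Agreement of the pairs thus did not separate the genes that passed from those that did not.

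Without replicate 1, 3 genes of the family were called higher and 4 lower, with 2351 rows higher and 2901 lower over all 11191. Rel was at 0.72 (adjusted p = 0.00084), Nfkbie at 0.25 (adjusted p = 0.00721) and Nfkb1 at 0.23 (adjusted p = 0.0025). The lower genes were Nfkbia at -0.42 (adjusted p = 0.000927), Rela at -0.32 (adjusted p = 0.00395), Relb at -0.30 (adjusted p = 0.00444) and Nfkbiz at -0.27 (adjusted p = 0.0144). Removing the 4 replicate 1 samples left 8 samples, and the standard errors were smaller for all 10 genes.

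FPKM is scaled per length, so the levels of the genes can be set side by side within a sample. In control cells Nfkbia and Rela led, and their ranges overlapped. Nfkb2 and Nfkb1 followed with overlapping ranges, then Relb, which was separate from its neighbours. Nfkbie, Nfkbib and Bcl3 came next, each overlapping its neighbour, and Nfkbiz and Rel came last with overlapping ranges. In IL-4 cells Rela and Nfkb1 led with overlapping ranges, and Nfkbiz was last and separate. After LPS, Nfkbia was first and separate in both groups, and Rel was last in both, separate from Relb in LPS and overlapping it in IL-4+LPS. Neighbours overlapped from Nfkbie to Relb in LPS and from Nfkb2 to Rel in IL-4+LPS, as did Nfkb2 and Nfkbiz in LPS.

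In the subunit pool, the share of Rela was smaller and that of Nfkb2 larger in every LPS-treated sample than in any other. Summed over the 5 subunits, FPKM was 130.1 ± 7.53 in control, 87.2 ± 2.86 with IL-4, 653 ± 86.2 with LPS and 647 ± 138 with both (SD, n = 3). Rela made up 31.7% ± 1.57 of that sum in control and 34.1% ± 1.82 in IL-4, and 14.8% ± 0.33 in LPS and 11.7% ± 0.807 in IL-4+LPS. Nfkb2 made up 24.7% ± 1.06, 18.5% ± 1.38, 38.2% ± 3.58 and 37.0% ± 4.46 in the same order of groups. The share of Relb was 16.0% ± 0.941 in control, 7.58% ± 0.755 with IL-4, 12.9% ± 0.899 with LPS and 10.1% ± 0.637 with both. That of Rel was 5.49% ± 1.13 in LPS and 8.90% ± 1.92 in IL-4+LPS. The shares were not tested.

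Summed over the 5 IκB genes, FPKM was 92.8 ± 8.54 in control, 47.9 ± 4.46 with IL-4, 1514 ± 316 with LPS and 1245 ± 331 with both. Nfkbia held 47.4% ± 2.87 of it in control and 60.5% ± 2.71 in LPS. Nfkbiz held 7.94% ± 2.19 in control, 1.37% ± 0.607 with IL-4, 15.9% ± 2.48 with LPS and 14.6% ± 0.825 with both. Nfkbib went from 15.1% ± 0.748 in control to 5.83% ± 0.252 in LPS, a smaller share although its own level was higher.

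**Figure D4:**
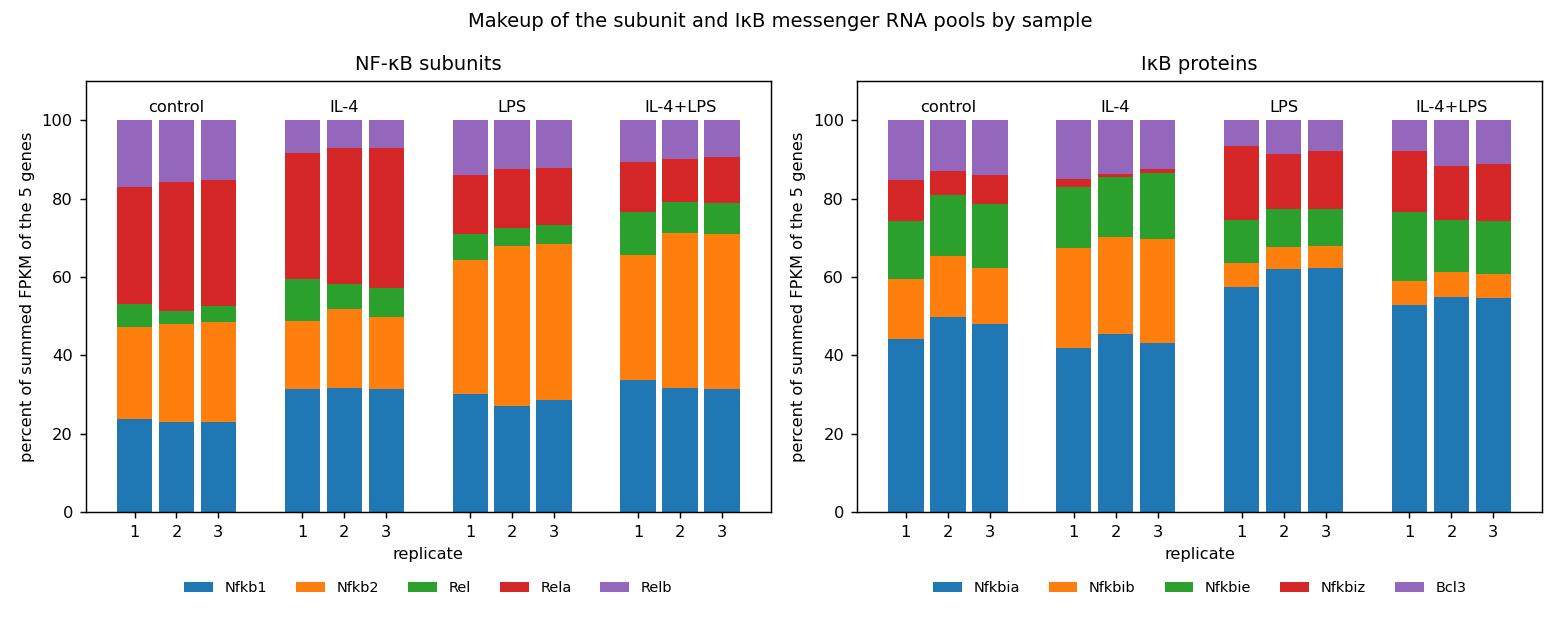
Percent of summed FPKM taken by each of the 5 subunits (left) and each of the 5 IκB genes (right), 1 bar per sample with the replicate number below. The Rela segment is narrower and the Nfkb2 segment wider in all 6 LPS-treated samples than in the 6 others, and the Nfkbiz segment is close to 0 in IL-4.

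Other genes of the pathway were taken from lists by role. The other IκB family genes are Nfkbid, which encodes the nuclear protein IκBNS, and Nfkbil1. Nfkbid was at 8.67 ± 0.832 FPKM in control, 10.9 ± 1.68 with IL-4, 12.0 ± 1.95 with LPS and 20.3 ± 4.0 with both. It rose with LPS by 0.42 (SE 0.17, adjusted p = 0.0385) and was higher in IL-4+LPS than in LPS by 0.70 (SE 0.17, adjusted p = 0.00843). Nfkbil1 changed by 0.028 (SE 0.13, adjusted p = 0.852) after LPS alone and rose by 0.96 (SE 0.13, adjusted p = 6.33e-05) after IL-4 pretreatment, with an interaction of 0.93 (SE 0.18, adjusted p = 0.00981). With median or quantile scaling, 2 of these 2 genes were called higher in LPS minus control, and 0 with the per-gene Tukey test. The calls of this pair after LPS alone thus depend on the scaling and the test. Without replicate 1 the interaction of Nfkbid was also called, at 0.39 (adjusted p = 0.025), and IL-4 alone raised Nfkbid by 0.34 (adjusted p = 0.00551).

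Of the 10 kinases and kinase partners that act above the IκB proteins, 4 rose and 2 fell with LPS. The shares of all rows were 16.9% higher and 57.7% lower. Ikbke, an IκB kinase-related enzyme, rose by 2.0 (SE 0.13, adjusted p = 2.48e-07), and Tab2, an adaptor of the kinase Map3k7, by 1.69 (SE 0.14, adjusted p = 1.52e-06). Ikbkb, the catalytic subunit that phosphorylates IκB in the canonical pathway, rose by 0.66 (SE 0.12, adjusted p = 0.000488) and Tbk1 by 0.57 (SE 0.11, adjusted p = 0.000765). Map3k14, the kinase that starts the noncanonical pathway, fell by 2.25 on the log2 scale, from 10.6 ± 0.0116 to 1.5 ± 0.746 FPKM, and Tab1 fell by 1.89. Chuk, Ikbkg, Map3k7 and Tab3 were not called. With median or quantile scaling 7 were higher and 2 lower, and without replicate 1 Chuk was added at 0.17 (adjusted p = 0.0468).

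IL-4 alone lowered 4 of the 10 kinase genes and raised 1, against 21% of all rows lower and 16% higher. Map3k14 changed by -1.19 (SE 0.18, adjusted p = 0.000609), Ikbke by -1.16 (SE 0.13, adjusted p = 6.28e-05), Tab2 by -0.58 (SE 0.14, adjusted p = 0.00791), Map3k7 by -0.26 (SE 0.081, adjusted p = 0.0297) and Ikbkg, the regulatory subunit of the IκB kinase complex, by 0.27 (SE 0.084, adjusted p = 0.0301). With LPS present 3 were lower after IL-4, Ikbke at -1.12 (SE 0.13, adjusted p = 8.19e-05), Tab2 at -0.63 (SE 0.14, adjusted p = 0.00588) and Ikbkb at -0.39 (SE 0.12, adjusted p = 0.0317). The share of all rows called lower in this comparison was 15.8%. With the replicate block or without replicate 1, 6 kinase genes were lower, against 2667 and 2901 of 11191 rows. Without replicate 1 the additional genes were Tab3 at -0.40 (adjusted p = 0.0162), Map3k7 at -0.23 (adjusted p = 0.0275) and Tbk1 at -0.17 (adjusted p = 0.0204). IL-4 alone also lowered 6 in that setting, against 3286 of 11191 rows. In IL-4+LPS minus IL-4, 4 rose and 3 fell, against 15% and 57.9% of all rows, and 7 of the 10 rose with quantile scaling. The interaction called 0 of the 10 with limma, against 1 at an unadjusted p under 0.05 and 1 with the per-gene Tukey test, both times Map3k14 (0.87), which was called without replicate 1 (0.95, adjusted p = 0.00294).

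Of the 8 genes listed as regulators of NF-κB in the nucleus or of IκB turnover, 6 fell and 0 rose with LPS in limma (0 at an unadjusted p under 0.05 and 0 with the Tukey test), with a median change of -0.48 that is close to the -0.44 of all rows. Pdlim2, a ubiquitin ligase for nuclear Rela, fell most, by 1.30 on the log2 scale. With median scaling 2 of the 8 fell, and with quantile scaling 4 fell and 2 rose, so the direction of this list depends on the scaling. Pdlim2 was also lower with IL-4 alone (-1.05) and in IL-4+LPS against LPS (-1.19). In IL-4+LPS minus IL-4, 7 of the 8 fell, and 3 did with median scaling and 4 with quantile scaling. Without replicate 1 the counts were again 6 lower in LPS minus control and 7 lower in IL-4+LPS minus IL-4.

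Among 29 known NF-κB target genes, 27 rose with LPS and 1 fell, against 16.9% of all rows higher and 57.7% lower. The median of the 29 was 4.87. Il1b rose by 8.20 (SE 0.59, adjusted p = 5.85e-07) and Saa3 by 7.77 (SE 0.68, adjusted p = 2.39e-06), the largest increases, and Bcl2l1, an antiapoptotic gene, changed by -1.25 (SE 0.16, adjusted p = 4e-05). IL-4 alone raised 3 and lowered 8, against 16% and 21% of all rows. Without replicate 1 it raised 4 and lowered 17, against 2406 and 3286 of 11191 rows. In IL-4+LPS minus LPS 7 targets were higher and 5 lower, where 15% and 15.8% of all rows were. Without replicate 1 they were 16 and 8, where 2351 and 2901 of 11191 rows were. The leading targets were a chemokine and a cytokine in one direction, Ccl2 at 3.60 (SE 0.40, adjusted p = 6.94e-05) and Il6 at 2.17 (SE 0.32, adjusted p = 0.000525). In the other direction they were Saa3 at -2.80 (SE 0.68, adjusted p = 0.0101) and Tlr2 at -1.34 (SE 0.15, adjusted p = 6.66e-05). The interaction called 7 targets higher and 1 lower, against 4.58% and 4.63% of all rows. Without replicate 1 these were 22 and 1, against 1481 and 1386 of 11191 rows. The lists were chosen with results of these samples known, and their counts are descriptions.

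The genes whose log2(FPKM + 1) over the 12 samples correlated best with each member are given as a description, with Pearson's r and no test, since the 12 points form LPS-treated and untreated clusters and share the replicate offsets. For Nfkbia they were Ehd1 (0.999), Traf1 (0.998) and Tnfaip2 (0.998). For Nfkbiz they were Pstpip2 (0.999), Il2rg (0.998) and Il15 (0.997), and for Nfkbie Icam1 (0.997), Cdc42ep2 (0.997) and Tnf (0.997). Relb was nearest to Marcksl1 (0.995), Pstpip2 (0.994) and Nlrp3 (0.993). Bcl3 had Arid5a (0.998), Nfkb2 (0.997) and Sema4a (0.996), and Nfkb2 had Orai2 (0.998), Gpr132 (0.998) and Nfkbia (0.997), so each of these genes had another family member among its 3. Rel, the member with the weakest best match, had Appl1 (0.993), AW112010 (0.992) and Ankib1 (0.992). Rela had Snx20 (0.997), Myd88 (0.994) and Vasp (0.992), Nfkb1 had Etv6 (0.999), Ptgs2 (0.998) and Adora2a (0.998) and Nfkbib had Tnfsf9 (0.998), Socs3 (0.998) and Acsl1 (0.997).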

How the data were processed

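RNA was sequenced from 12 BMDM samples, 3 in each of 4 groups taken from the labels. The authors made poly-A libraries, mapped paired reads to mm10 with TopHat2 (2.0.7 per the labels' processing notes) and computed the deposited FPKM values, 1 table per sample, with Cufflinks (2.0.2). The gene annotation was not given in the sources used here. Because FPKM is scaled within a sample, a gene that takes a larger part of the RNA lowers all others.

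The tables held 23847 rows for 23361 symbols. Rows with at least 1 FPKM in at least 1 sample (11191) were fitted as log2(FPKM + 1) with limma 3.58.1 in R 4.3.3, as a group-means model over the 12 samples with an intensity trend and 8 residual degrees of freedom. Benjamini-Hochberg adjustment was made over all rows of a contrast, with a threshold of 0.05. The script was tested on simulated data. Of all pairs of samples, 0 held identical values. Same-numbered samples count as paired where the deviations from the group means correlate over 0.1 in all 3 pairs, which held for LPS with IL-4+LPS only. The pairing comes from the data, since the labels give a number alone.

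Loci came with the deposited FPKM values, strands and overlaps from GENCODE, and promoters from RefSeq. Text names all 10 members, any gene of the lists with 12 genes or fewer, the 2 target genes with the largest called change in each direction in LPS minus control and in IL-4+LPS minus LPS, and the 3 genes most correlated with each member. The members and lists were chosen with earlier results of these data known. The 19 alternatives were a pseudocount of 0.1, no expression filter, median scaling, quantile normalization, the replicate number as a block, a per-gene Tukey test, replicates 2 and 3 only, and each sample left out in turn. For the interaction, the Tukey setting was an ordinary per-gene t-test. Figures were drawn with matplotlib 3.10.9.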

Additional observations from a re-analysis of the deposited data

Results flagged for a closer look

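By the interaction term of the same limma fit (3 samples in each of 4 groups), the LPS response differed with IL-4 for 3 members of the family. It also differed for 3 other genes, out of the shorter lists and the targets named by size of change. Nfkbiz, which encodes IκBζ, had an interaction of 1.915 on the log2 scale, Relb one of 1.134 and Nfkbie, which encodes IκBε, one of 1.096, all toward a larger response after IL-4. Of the other genes, Il6 had an interaction of 2.232, Tlr2, a receptor of bacterial lipoproteins, one of 1.052 and Nfkbil1 one of 0.9282, in the same direction. Target genes named only as correlates were not in this count. Among them Icam1 (1.989), Tnf (1.455) and Nlrp3 (1.223) also passed, and Traf1 and Ptgs2 did not. Il6 reached a higher level after IL-4 and Tlr2 a lower one, so genes with a larger log2 response ended on either side of the level in LPS alone. Nfkbil1 changed by 0.028 with LPS alone, a value that did not pass the test, although it was called higher with median or quantile scaling.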

How the results depend on the processing

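The calls of all 10 genes in LPS minus control and IL-4+LPS minus IL-4 were kept under all 19 alternatives. For IL-4 minus control, leaving out single samples gave 5 to 7 genes lower and 0 to 1 higher, and replicates 2 and 3 alone gave 8 lower and 1 higher. For IL-4+LPS minus LPS, 1 gene higher and 1 lower became 2 and 3 with the replicate block, 1 and 0 with median scaling, 1 and 3 with quantile normalization and 3 and 4 with replicates 2 and 3 only, and single samples left out gave 1 to 2 higher and 0 to 2 lower. The lower call of Relb was lost without LPS replicate 2 or LPS replicate 3. For the interaction, 3 higher calls became 5 with the block and 8 with replicates 2 and 3 only, and 3 to 6 with single samples left out, with 6 reached without IL-4+LPS replicate 1.

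A few values that did not pass the test changed sign. With single samples left out, IL-4+LPS minus LPS ran from -0.27 to 0.22 for Nfkb2, from -0.37 to 0.014 for Nfkbib and from -0.17 to 0.54 for Bcl3, and the interaction from -0.0035 to 0.24 for Rela and from -0.19 to 0.19 for Nfkbib. With replicates 2 and 3 only, Nfkb2 was at 0.025 in IL-4+LPS minus LPS and Nfkbib at 0.024 in the interaction. Over the 5 contrasts and 10 genes, 889 of the alternative values kept direction and side of the threshold, 26 newly passed it, 21 no longer passed it and 14 changed sign. By level, 2 genes changed rank in IL-4 without replicate 1. The cause of these shifts was not tested.

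In LPS and IL-4+LPS all 3 same-numbered pairs correlated over 0.1, so the replicate block is given beside that comparison. Elsewhere same-numbered samples were not shown to be paired. Over all groups their deviations correlated at 0.0024 to 0.386 (18 pairs, mean 0.124), 11 pairs were over 0.1, and 7 of 12 samples correlated best with a sample of their own number. The block changed no count of members called other than those given above. FPKM without counts gives no depth-based interval, so levels near 1 FPKM, such as Nfkbiz in IL-4, carry an unknown counting error.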
